A study of Mus musculus with 68 samples.

Results

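The genes described here are 38 genes of the cell division cycle, measured in spinal motor neurons made from mouse embryonic stem (ES) cells. They were chosen by name, as the genes whose transcript clusters (the array's units of measurement) carry their symbols, and Pcna and Top2a, which had more than 1 cluster, were read from the brighter cluster. All 38 were found among the 19938 genes that the array table names with a single symbol. Of these, 17 act in the G1 to S phase transition and DNA replication and 21 act in G2 phase and mitosis, with the helper of DNA untangling Top2a and the proliferation antigen Mki67 placed in the second set.

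The study was a gain-of-function screen for determinants of phrenic neurons, the motor neurons that drive the diaphragm. ES cells of strain C57/BL6 were grown as embryoid bodies and exposed from day 2 to retinoic acid and an agonist of Smoothened, which turn them into ventral spinal tissue. On day 5 the motor neurons were enriched with magnetic beads through a surface reporter transgene, CD2 or CD14, active in motor neurons. Doxycycline then induced 1 or 2 transgenes while the cells stayed on matrigel for 30 h, except that lines marked 10 were induced for the last 10 h only. All groups shared this protocol, and the control expressed YFP, a fluorescent protein with no known role in cell division. There were 68 arrays in 31 groups, 45 of CD2 and 23 of CD14 cells, spread over 8 batches numbered 0 to 7 in the labels. The YFP control of each reporter and the CD2 line of Pou3f1 had 4 arrays each, the parental line H4 had 3, the E3 group of batch 6 had 1 and all others had 2. The CD2 lines expressed Arid5b, Btbd3, Chd5, a form of Lhx3 marked DN (labels do not spell it out), Hey1, Hoxa5, Hoxc6, Klf5, Klf6, Lhx3, the Notch1 intracellular domain for 30 or 10 h, Pou3f1, Sfmbt2, Tox, Vwc2, Zbtb7c or Zic1, or were the parental line H4. The CD14 lines expressed Pou3f1 alone, Pou3f1 with a Flag tag, Pou3f1 with the DN form of Lhx3, with Hoxa5, with Hoxc6 or with Lhx3, or NERT for 30 or 10 h (a name the labels do not expand), or were the parental line E3. A pair of E3 arrays labelled as induced made up batch 0. Neither it nor the single E3 array of batch 6 was set against another group in a test. The pair stayed in the model of all arrays, where it adds to the estimate of the spread. The batch 6 array is set beside YFP of its batch only as a value. Nothing in the labels tells whether replicates were cultured apart, and the p-values measure the spread between these arrays, which may be partly technical.

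Cells divide by passing through a gap phase (G1), DNA synthesis (S), a second gap (G2) and mitosis (M). Cyclins and their kinases push cells across each step: cyclin D1 answers growth and patterning signals early in G1, cyclin E acts with the E2F transcription factors at the entry to S phase, and cyclins A and B act with Cdk1 up to mitosis. In the neural tube, ventricular progenitors cycle while motor neurons leave the cycle for good as they are born. Notch signalling keeps progenitors undifferentiated, and E2F activators and the DREAM and MuvB complexes time the transcription of these genes.

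The sequences shown are promoters of the members Mki67, Kif23, Cdk1, Mcm5 and Mcm6. They run from 250 bases before to 50 bases after the start, 5′ to 3′ on the gene's strand, from RefSeq on GRCm38.p6. Capitals mark matches to a cell cycle homology region (CHR; TTTGAA or TTCGAA, either strand) in Mki67, Kif23 and Cdk1, which act late in the cycle. In Mcm5 and Mcm6, which encode parts of the replicative helicase, and once in Cdk1, capitals mark an E2F motif (TTTCCCGC, TTTGGCGC, TTTCGCGC or TTTGCCGC, either strand). The longer capital runs of Mcm5 and Mcm6 are overlapping E2F matches on both strands. Positions are chr7:135716330-135716629 (minus) for Mki67, chr9:61946750-61947049 (minus) for Kif23, chr10:69352863-69353162 (minus) for Cdk1, chr8:75109259-75109558 (plus) for Mcm5 and chr1:128359656-128359955 (minus) for Mcm6.
Mki67: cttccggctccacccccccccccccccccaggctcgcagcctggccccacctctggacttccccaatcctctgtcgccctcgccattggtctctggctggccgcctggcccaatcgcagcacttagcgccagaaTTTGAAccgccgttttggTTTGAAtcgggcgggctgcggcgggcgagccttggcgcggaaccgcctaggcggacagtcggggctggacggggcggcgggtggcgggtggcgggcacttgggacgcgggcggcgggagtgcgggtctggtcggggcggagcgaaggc
Kif23: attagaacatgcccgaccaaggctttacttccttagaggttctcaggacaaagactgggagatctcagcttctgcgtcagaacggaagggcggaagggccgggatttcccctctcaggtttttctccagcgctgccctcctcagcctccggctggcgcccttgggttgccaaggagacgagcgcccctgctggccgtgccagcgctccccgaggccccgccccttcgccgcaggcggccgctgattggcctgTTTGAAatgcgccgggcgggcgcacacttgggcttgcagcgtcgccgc
Cdk1: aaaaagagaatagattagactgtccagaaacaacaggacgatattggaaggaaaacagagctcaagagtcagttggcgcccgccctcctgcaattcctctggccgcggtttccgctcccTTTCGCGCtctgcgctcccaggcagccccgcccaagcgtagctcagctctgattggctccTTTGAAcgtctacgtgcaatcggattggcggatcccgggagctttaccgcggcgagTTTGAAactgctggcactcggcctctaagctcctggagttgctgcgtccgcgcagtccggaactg
Mcm5: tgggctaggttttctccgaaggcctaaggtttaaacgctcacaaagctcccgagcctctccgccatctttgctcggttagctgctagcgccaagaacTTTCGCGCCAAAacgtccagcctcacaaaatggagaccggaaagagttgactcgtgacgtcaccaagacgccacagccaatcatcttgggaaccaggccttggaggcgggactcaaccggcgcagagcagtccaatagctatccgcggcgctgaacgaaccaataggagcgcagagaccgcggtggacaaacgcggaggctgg
Mcm6: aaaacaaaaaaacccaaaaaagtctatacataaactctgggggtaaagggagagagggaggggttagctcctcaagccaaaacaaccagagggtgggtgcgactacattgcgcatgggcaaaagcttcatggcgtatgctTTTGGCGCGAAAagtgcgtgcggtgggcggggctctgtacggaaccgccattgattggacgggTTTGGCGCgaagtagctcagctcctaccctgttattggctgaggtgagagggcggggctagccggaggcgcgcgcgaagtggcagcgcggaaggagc
Promoters were found for 30 of the 38 members (31 promoters). A CHR match was present in 13 of 17 promoters of G2 and M members (76.5%), in 2 of 14 of G1 and S members (14.3%) and in 19.2% of all 32851 promoters of this length. An E2F match was present in 6 of 14 promoters of G1 and S members (42.9%), in 1 of 17 of G2 and M members (5.88%) and in 2.26% of all promoters. The CCAAT box, the binding sequence of NF-Y, was counted on either strand and occurred in 74.2% of member promoters against 37.4% of all. CCAAT and CHR stood together in 76.5% of the G2 and M promoters and in 7.52% of all. Matches of different motifs overlapped in 1 member promoter, where a CCAAT and an E2F match of Mcm7 share a base. A match is a description of the sequence alone. Ccnd1, Ccne2, Gmnn, Mcm4, Ccna2, Aurkb, Kif20a and Tpx2 had no entry.

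The cells carried the markers of motor neurons in every array. Over the 68 arrays the log2 signal of Isl1, a motor neuron homeodomain factor, ran from 11.45 to 13.47, that of Mnx1 from 8.45 to 10.34 and that of Chat, the enzyme that makes acetylcholine, from 8.61 to 10.55. Neuronal Tubb3 ran from 11.63 to 13.09 and Stmn2 from 13.72 to 14.21. Progenitor genes also gave signal, with Sox2 between 8.21 and 11.75, Olig2 between 7.78 and 10.47 and Hes5, a Notch target, between 8.68 and 11.61. The pluripotency genes Pou5f1 and Nanog ran from 5.51 to 6.66 and from 6.00 to 7.11. The 12 listed pluripotency genes also included Lin28a and Sall4, with mean signals of 9.59 and 8.65 over the 68 arrays. The median over all clusters was 7.57 to 7.84 per array in batches 1 to 7. In batch 0 it was 7.08 to 7.09, and that batch was kept out of the ranges below. RNA of the whole sorted culture was measured, so a change in the number of cycling cells and a change in RNA per cell cannot be told apart. Array values are compared between arrays for the same gene and never between genes.

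The 38 members varied together from array to array, and by more than most genes. Their mean log2 signal ran from 8.50 to 10.71 over the 66 arrays of batches 1 to 7. The mean of the 17 G1 and S members ran from 8.73 to 10.73 and that of the 21 G2 and M members from 8.18 to 10.72. Ccnd1 (cyclin D1) had the widest range of the members, from 7.97 to 12.95. Mki67 followed, from 8.05 to 11.90, while Ccne1 (cyclin E1), Cdt1, which helps load the helicase, and E2f1 spanned 1.90, 1.80 and 1.73 log2 units. After group and batch were fitted, the residual SD of a member was 0.37 at the median, against 0.15 for all 19938 genes, and each of the 38 lay above the 90th percentile of all genes. Late genes varied more than early ones, with a median residual SD of 0.39 for G2 and M members and 0.31 for G1 and S members, a difference that was not tested.

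**Figure D1:**
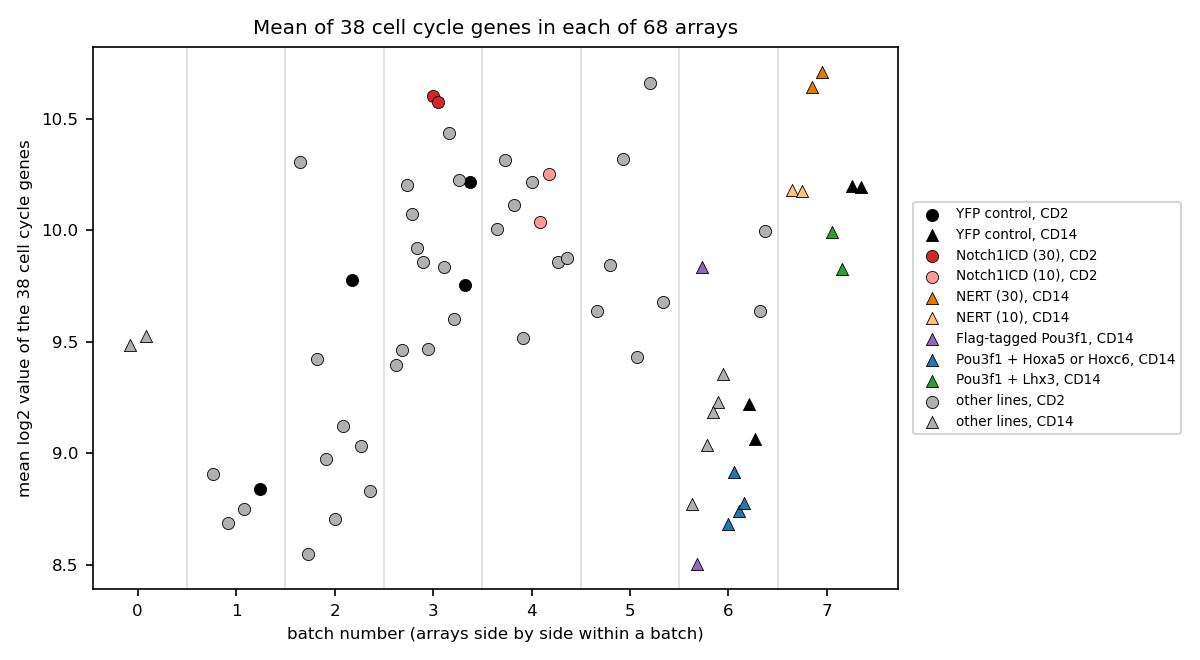
Mean log2 signal of the 38 members in each array, by batch, with YFP controls and the lines named in the legend set apart from the others. The points of batch 1 lie below 9, those of batch 7 lie between 9.83 and 10.71, and batch 2 runs from 8.55 to 10.31.

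The controls alone covered much of this range. In CD2 cells with YFP the mean of the members was 8.84 in batch 1, 9.78 in batch 2, and 9.75 and 10.22 in batch 3. In CD14 cells with YFP it was 9.22 and 9.07 in batch 6, and 10.20 and 10.19 in batch 7. All 38 members were higher in both batch 7 YFP arrays than in both batch 6 ones, as were 27.8% of all genes. Mki67 read 9.44 and 9.26 in batch 6 and 10.61 and 10.60 in batch 7, and Ccnd1 read 8.62 and 8.76 against 10.94 and 11.27. In CD14 cells the controls of these batches thus did not overlap for either gene. In CD2 cells Ccnd1 read 9.47 in batch 1, 9.46 in batch 2, and 9.35 and 10.13 in batch 3, where the batch 3 values span the others. Most tests below come from a model of all arrays with a term for batch. Many values within a batch are given beside them where the batch held a control.

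Replicate arrays of 1 line in 1 batch also parted along these genes. Over 20 such pairs the difference in the members' mean ran from 0.01 to 1.33, with a median of 0.16. It exceeded 0.5 in 5 pairs, and in each of those all 38 members moved the same way. The widest gap was in Flag-tagged Pou3f1, with means of 8.50 and 9.84, followed by Hoxc6 in CD2 cells with 10.32 and 9.43. In batch 3 replicate 2 exceeded replicate 1 by 0.74 for Btbd3, 0.62 for Vwc2, 0.60 for Tox and 0.46 for YFP, while the 30 h Notch1 domain arrays gave 10.60 and 10.58 and the DN Lhx3 arrays 9.92 and 9.86. Mki67 in the Flag-tagged pair read 8.05 and 9.76, and Kif11, a spindle motor, read 7.98 and 9.82. The pairs of batch 7 differed by 0.07 (NERT for 30 h), 0.01 (NERT for 10 h), 0.01 (YFP) and 0.16 (Pou3f1 with Lhx3).

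**Figure D2:**
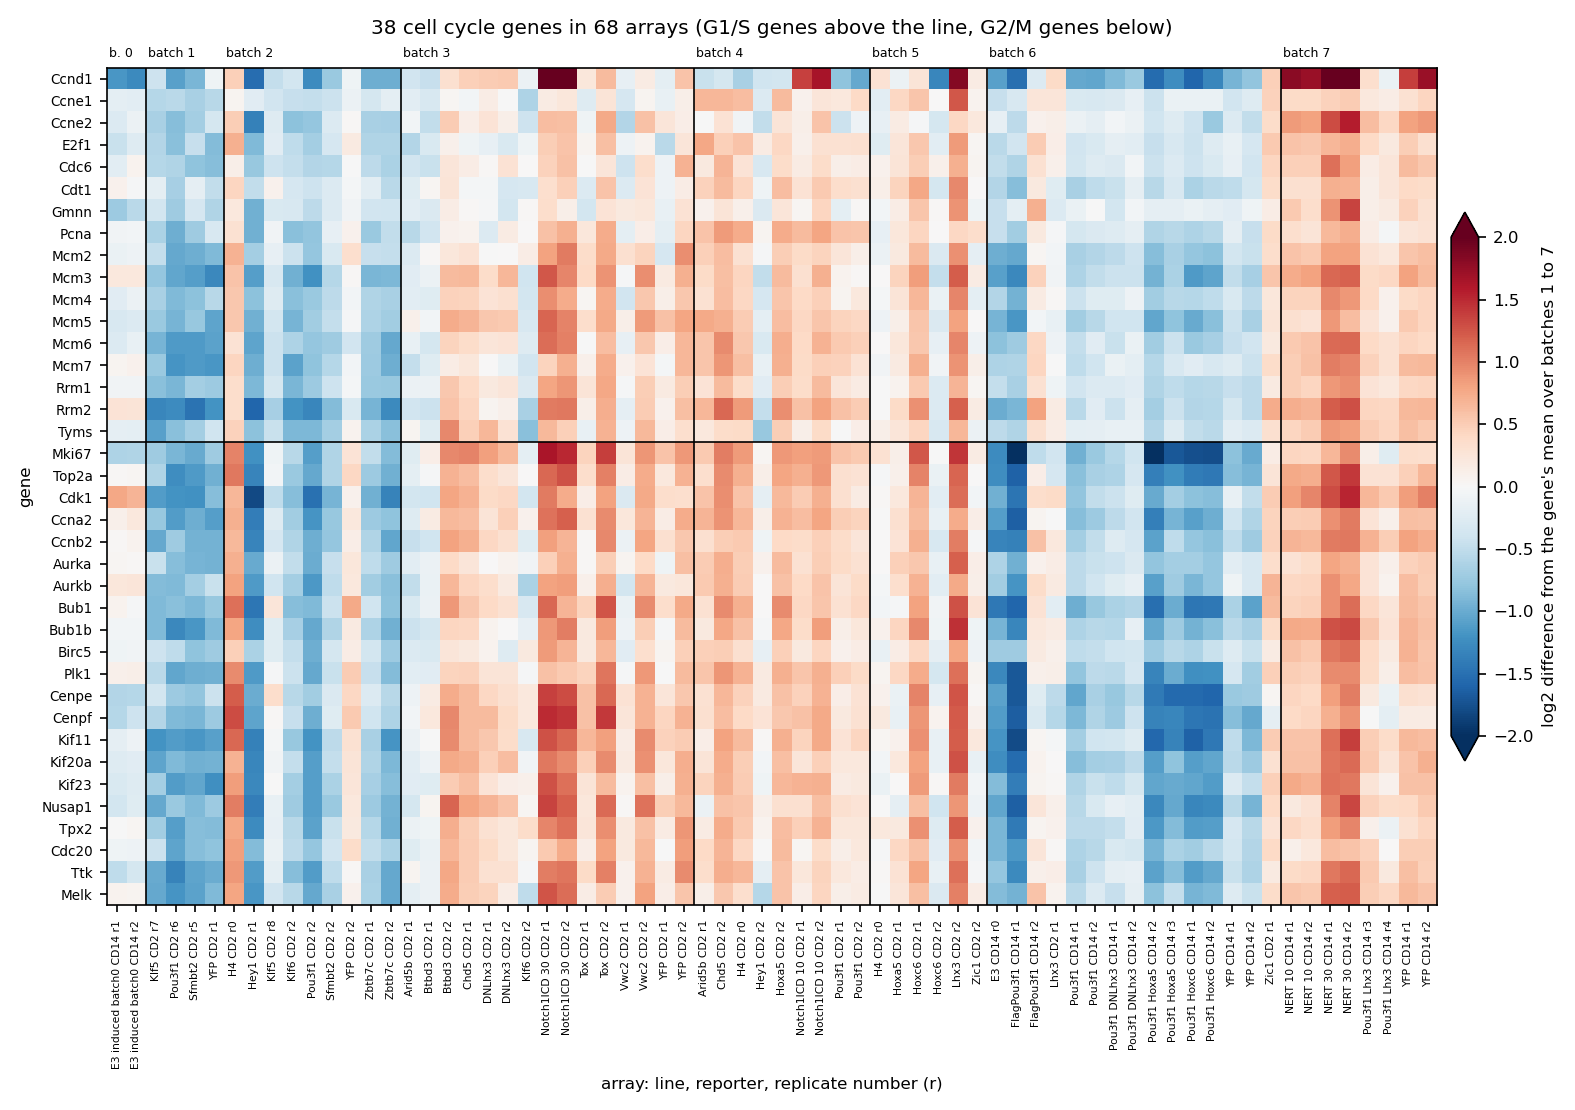
Log2 signal of each of the 38 members (lines of the map) in each of the 68 arrays (columns, ordered by batch), as the difference from the gene's mean, with the G1 and S members above the G2 and M members. Whole columns are high or low together, and Ccnd1 departs from the column colour in the Notch domain arrays.

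The co-variation was described by Pearson correlation across 66 arrays after each gene was centred on its mean in each batch and reporter, so the points share lines and labelling. Each member correlated with the mean of the others at a median r of 0.94. The highest was Bub1b, a spindle checkpoint kinase, at 0.98, and 35 of 38 exceeded 0.8. The lowest were Ccnd1 at 0.69, Ccne1 at 0.70 and Gmnn (geminin, which blocks relicensing of origins) at 0.78. G2 and M members had a median r of 0.94 and G1 and S members 0.87. Among the other 19900 genes the median was -0.12, and 1.02% exceeded 0.8. The 10 genes most like the members were Kif15, Exo1, Kif2c, Atad2, Dlgap5, Kif4, Cdca2, Kif18b, Fancd2 and Pole, from 0.98 down to 0.96. Of these, Kif15, Kif2c, Kif4 and Kif18b encode kinesin motors, and Exo1, Fancd2 and Pole act in DNA repair or replication.

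Other gene lists were set beside the members in the same way. The 61 other cell cycle genes measured had a median r of 0.91, with 47 above 0.8. The 10 measured histone genes, H2az1 among them, had a median of 0.74. The 21 neural progenitor genes had a median of 0.54, with 4 below 0. The 17 inhibitors of the cycle and genes of cycle exit had a median of -0.05. All 12 motor neuron genes and all 18 mature neuron genes lay below 0, at medians of -0.31 and -0.41. The gene with the lowest value was Snap91, a synaptic vesicle protein, at -0.72, and Stmn2 stood at -0.71.

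Across the same 66 arrays, the array means of the lists were also centred on batch and reporter. The mean of the progenitor list then followed the mean of the members (Pearson r 0.88, Spearman rho 0.86, and r 0.87 without the 2 arrays farthest from the median). Leaving out the 8 arrays of Notch domain and NERT lines left r at 0.87 over 58 arrays. The mature neuron list ran the other way (r -0.73, rho -0.62), as did the motor neuron list (r -0.47, rho -0.45). Arrays share batches and lines, so these values describe the set and carry no p-value. The label under which the 38 genes were gathered names them a residue of progenitors. Progenitor genes varied with them in these arrays, but which cells carried the cell cycle RNA was not tested.

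Few members differed from YFP once the spread between arrays was counted. One linear model (limma) over all arrays, with a term for group and one for batch, tested each gene in 27 comparisons of a line with YFP of its own reporter, with Benjamini-Hochberg adjustment over all 19938 genes and a threshold of 0.05. Of 1026 tests of members, 5 passed (3 higher, 2 lower; 0.487%), against 1.99% of all genes over the same comparisons, and 123 had an unadjusted p below 0.05. In CD2 cells 3 of 722 passed against 1.21% of all genes. In CD14 cells 2 of 304 passed against 3.84%. In 22 of the 27 comparisons no member passed. Of 8 comparisons between lines, with 304 tests, none passed by limma, against 3.05% of all genes, and 12 had an unadjusted p below 0.05. The comparisons of 1 reporter share their YFP arrays. Counts at an unadjusted p below 0.05, here and below, are given without the share of all genes at that threshold. The members also vary together, so such a count is not a count of separate changes.

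**Figure D3:**
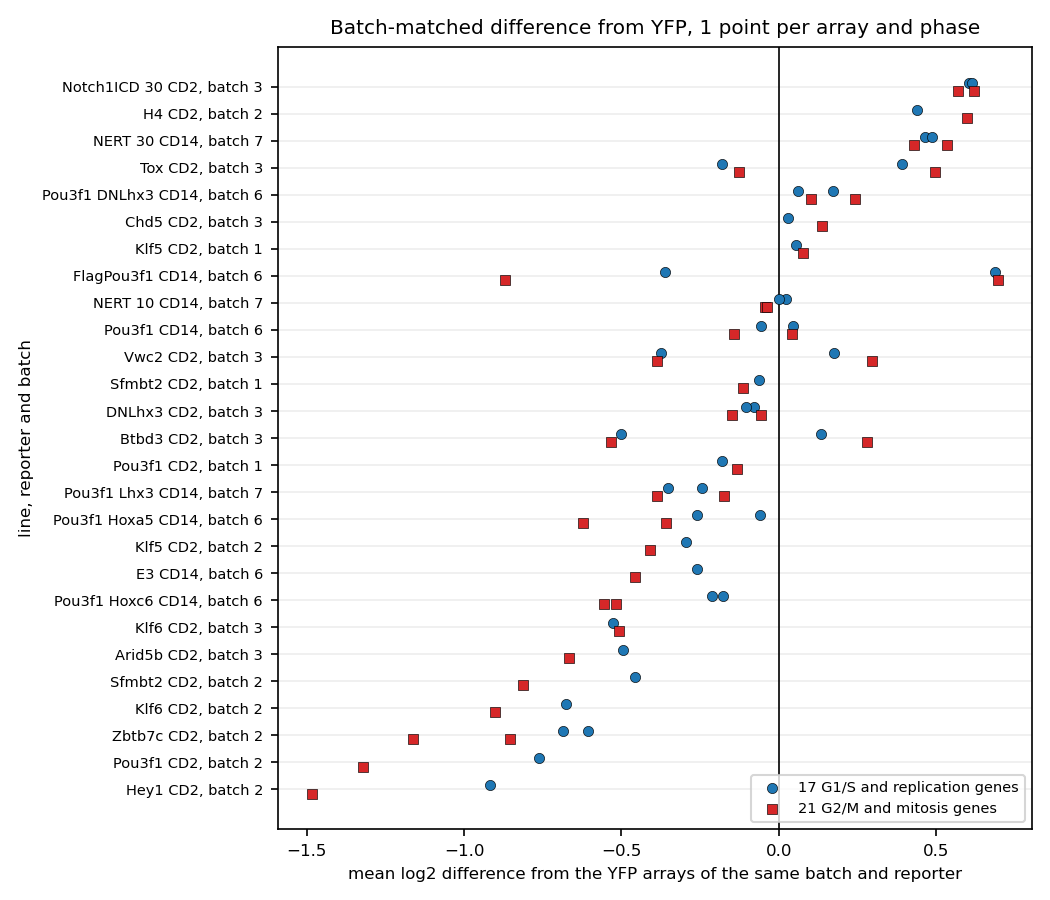
Mean of the members in each of the 41 arrays that had YFP arrays of the same batch and reporter, minus the mean of those YFP arrays, in log2 units (horizontal), by line and batch (vertical), with the G1 and S members (circles) and the G2 and M members (squares) apart. Over all 38 members, 14 arrays were above 0 and 27 below, and Hey1 in batch 2 was lowest, at -0.92 for early and -1.48 for late members.

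Ccnd1, the early G1 cyclin, rose most with the Notch1 intracellular domain. In YFP CD2 arrays it read 9.47, 9.46, 9.35 and 10.13, and in the 30 h Notch1 domain arrays 12.80 and 12.95, with no overlap. The difference was 3.09 ± 0.36 (SE, 2 and 4 arrays) on the log2 scale, 8.52-fold, with an adjusted p of 3.35e-08 by limma. Ccnd1 was the only member to pass in this comparison, where 3.54% of all genes were higher, and it passed without each array in turn. Within batch 3 alone the difference was 3.14 ± 0.27, or 8.80-fold.

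All 38 members had higher fitted values than YFP with the 30 h Notch1 domain, by a median of 0.55, while the median of all genes was -0.03. In batch 3, 30 of the 38 were above both YFP arrays in both Notch1 domain arrays, against 14.8% of all genes. Mki67 read 11.90 and 11.77, against 9.55, 10.54, 10.83 and 11.13 in the YFP arrays of all batches, of which the last 2 are of batch 3. These groups did not overlap, but the difference of 0.91 ± 0.37 had an adjusted p of 0.17 by limma. Cenpe, a kinetochore motor, read 9.95 and 9.89 against 8.14, 9.0, 8.82 and 9.12. Its difference passed in the model of batch 3 alone (0.95 ± 0.23, 1.93-fold, adjusted p 0.0436 by limma), where 2 members (Ccnd1 and Cenpe) passed against 2.79% of all genes in either direction. Without YFP replicate 2 of batch 3, 3 members passed over all batches. By contrast Cdc20, the activator of the anaphase ligase, read 9.97 and 10.19 against 8.64, 9.81, 9.43 and 10.29, and Gmnn read 6.94 and 6.71 against 6.00, 6.52, 6.44 and 6.87. In both, the ranges overlapped.

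With the Notch1 domain induced for 10 h, Ccnd1 read 10.92 and 11.20. The difference from YFP was 1.58 ± 0.40, 2.99-fold, with an adjusted p of 0.021 by limma, where 2.25% of all genes were higher. Both arrays were of batch 4, which held no YFP array, so this value rests on lines that batch 4 shares with other batches. The call was lost without either 10 h array (adjusted p 0.0533 without replicate 1 and 0.219 without replicate 2) and with batch left out of the model (0.127), taken as a random block (0.0621) or fitted in CD2 arrays alone (0.078). The other members showed no such rise: 32 of 38 differences were negative, with a median over all 38 of -0.17. Mki67 read 11.08 and 11.11, and Cenpe 9.04 and 9.28.

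**Figure D4:**
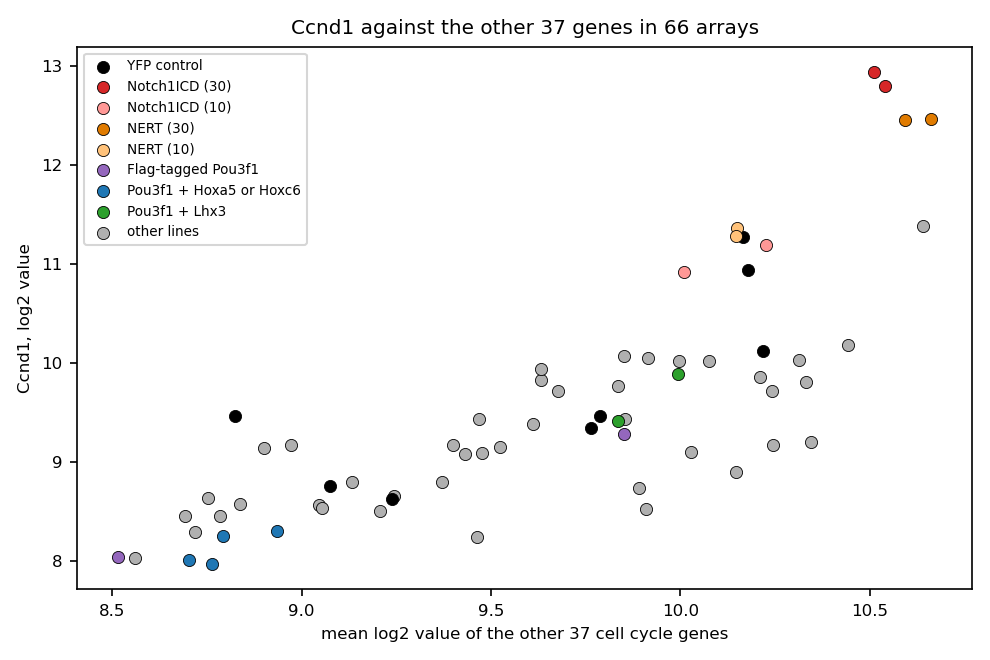
Ccnd1 log2 signal of each array (vertical) against the mean of the other 37 members in the same array (horizontal). The 30 h Notch1 domain arrays (12.80 and 12.95) and the 30 h NERT arrays (12.45 and 12.47) lie above all others, while the Pou3f1 with Lhx3 arrays (9.89 and 9.42) lie below the YFP arrays of their batch (10.94 and 11.27).

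With 30 h of NERT the cell cycle genes were higher across the board within batch 7, which had the smallest standard errors of the 3 batches fitted alone. All 38 members were above both YFP arrays in both NERT arrays, against 24.8% of all genes, and the median difference was 0.46. Ccnd1 read 12.45 and 12.47 against 10.94 and 11.27 with YFP. The difference was 1.36 ± 0.38, 2.56-fold, with an adjusted p of 0.0316 in the model of all arrays, the only member to pass there, where 2.91% of all genes were higher. That call was lost without any 1 of the batch 7 YFP or 30 h NERT arrays (adjusted p 0.287 without YFP replicate 1, 0.095 without YFP replicate 2, 0.137 and 0.207 without NERT replicates 1 and 2).

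In a model of batch 7 alone 29 of the 38 members rose (13 of 17 early, 16 of 21 late), against 14% of all genes that passed in either direction. The median standard error of a member was 0.0956 there, 0.293 in batch 3 and 0.332 in batch 6. Top2a, which resolves DNA tangles, read 11.44 and 11.61 against 10.68 and 10.87, a rise of 0.75 ± 0.09 with an adjusted p of 0.00197 by limma. Mcm6 read 10.64 and 10.66 against 9.94 and 9.92, a rise of 0.72 ± 0.07 with an adjusted p of 6.37e-04 by limma. Both arrays of NERT exceeded both controls by more than the arrays of either group differed. Gmnn rose by 0.74 ± 0.14, Nusap1, a spindle microtubule protein, by 0.70 ± 0.12, Bub1b by 0.66 ± 0.10, and the kinase gene Melk and the nucleotide reductase gene Rrm2 by 0.59 ± 0.07 each. Members that did not pass included Mki67, which read 10.93 and 11.21 against 10.61 and 10.60, Ccne1 at 10.68 and 10.72 against 10.51 and 10.64, and Cdc20 at 10.06 and 10.02 against 9.93 and 9.93. The count rested on few arrays. Without NERT replicates 1 and 2 it was 20 and 12, and without YFP replicates 1 and 2 it was 10 each. The nuclear RNA Malat1 also set the NERT arrays apart, at 11.61 and 11.51 after 30 h and 11.98 and 11.86 after 10 h. It read 10.96 and 10.98 with YFP and 10.98 and 11.09 with Pou3f1 and Lhx3, and its part in the result was not tested.

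After 10 h of NERT, the members stayed near YFP. Ccnd1 read 11.36 and 11.28, Top2a 10.96 and 10.92, Mcm6 10.04 and 10.09 and Nusap1 9.88 and 9.98. No member passed in the model of all arrays, where 0.416% of all genes did and 0 members had an unadjusted p below 0.05, nor in that of batch 7, where 1.32% did. Of the 38 members 11 were above both YFP arrays in both NERT arrays, against 24.9% of all genes, and 16 were below, against 33.9%. The median difference was -0.03.

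Set directly against 10 h, 30 h of NERT gave higher values for all 38 members, by a median of 0.47. None passed in the model of all arrays, where 3.78% of all genes did by limma and 5 members had an unadjusted p below 0.05. In that of batch 7, 33 rose (14 early, 19 late), against 9.51% of all genes in either direction. Ccnd1 was higher by 1.14 ± 0.16, Nusap1 by 0.92 ± 0.12, the checkpoint kinase gene Ttk by 0.70 ± 0.11, Gmnn by 0.69 ± 0.14 and Kif11 by 0.67 ± 0.10. Mki67, Ccne1, E2f1, Mcm2 and Cdc20 did not pass. Without NERT 10 h replicates 1 and 2 the count was 8 and 6, and without NERT 30 h replicates 1 and 2 it was 18 and 8.

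**Figure D5:**
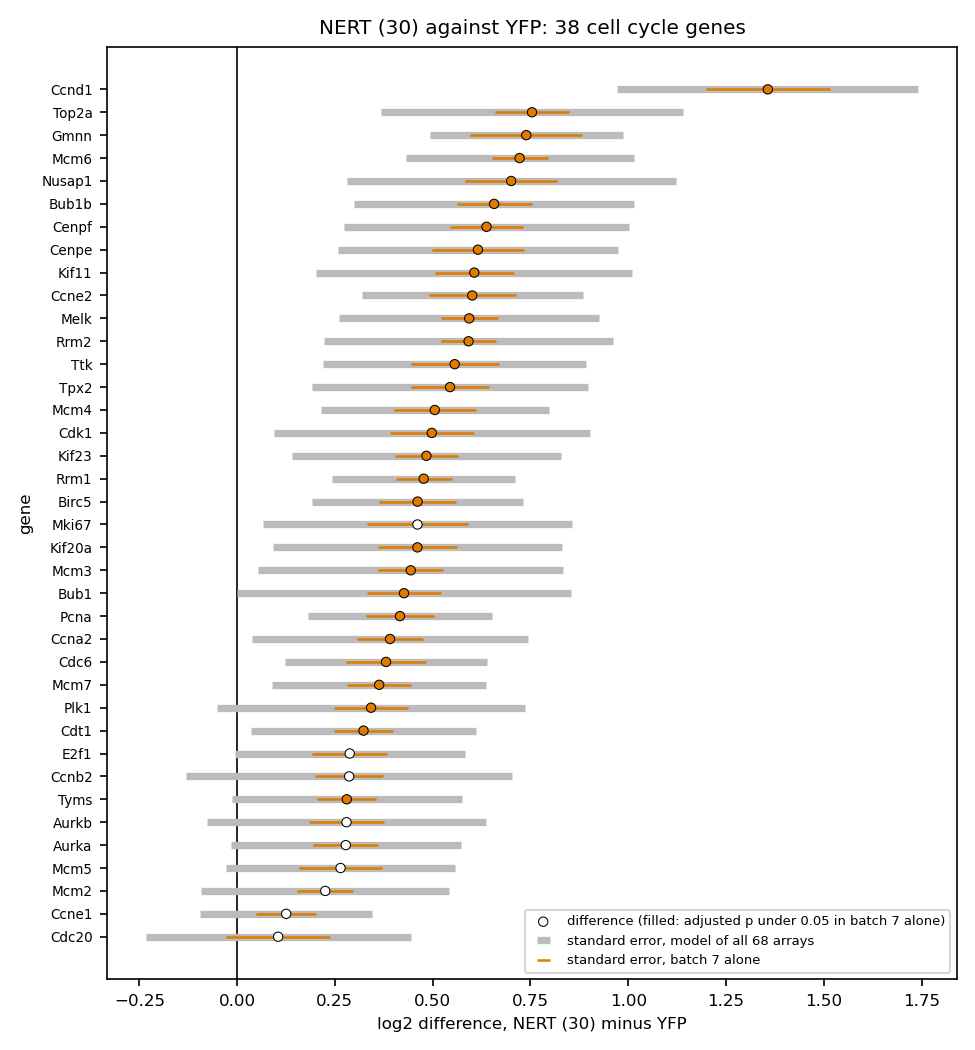
Log2 difference of each member (vertical) between NERT for 30 h and YFP of batch 7 (horizontal), with 2 arrays a group. Thin bars are standard errors from the model of batch 7 alone, thick bars those from the model of all 68 arrays, and filled points passed in batch 7 alone. All 38 values lie above 0, from 0.10 to 1.36.

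Other genes of the cycle and of cell type moved beside these members. With the 30 h Notch1 domain, 6 of 61 other cell cycle genes rose: E2f2 (0.66 ± 0.12), Mybl2 (0.86 ± 0.20), Cdc45 (0.78 ± 0.20), Smc4 (0.82 ± 0.24), Chek1 (0.93 ± 0.29) and Rbl1 (0.68 ± 0.21). In that comparison 3.54% of all genes were higher. Mybl2 is the B-Myb partner of MuvB and Cdc45 is part of the active helicase. With 30 h of NERT 0 of 61 passed by limma, although 59 differences were positive, with a median over all 61 of 0.48. Among 17 inhibitors and exit genes, Gadd45b, a stress-induced brake on Cdk1, rose with the Notch1 domain (2.05 ± 0.25) and with NERT (2.24 ± 0.27). Cdkn2c, which blocks Cdk4 and Cdk6, rose with the Notch1 domain (0.84 ± 0.22), while Cdkn2a and Cdkn2b fell by 0.67 ± 0.14 and 0.88 ± 0.21 with NERT.

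Some progenitor genes rose, and most motor neuron genes fell, in the same 4 arrays. Of 21 progenitor genes, 4 rose with the 30 h Notch1 domain (Hes5, Id1, Sox9 and Notch1) and 5 with 30 h of NERT (the same 4 and Pax6), while the other 17 and 16 did not pass. Of all genes 3.54% and 2.91% were higher. Hes5 is a direct Notch target, and Notch1 is itself the transgene of the Notch1 domain line. The labels do not settle whether the Notch1 signal with NERT also comes from a transgene, which was not tested. Hes5 gained 2.18 ± 0.17 and 2.68 ± 0.19. Of 12 motor neuron genes 8 and 9 fell, where 505 and 357 of all 19938 genes were lower, and Isl1 read 12.13 and 11.98 with NERT against 12.80 and 12.74 with YFP. The mean of the progenitor list was 10.41 and 10.45 with the Notch1 domain and 10.38 and 10.36 with NERT, against 9.46 to 9.98 over all YFP arrays. The part of cell composition in the member values was not tested.

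Ccnd1 was lower with Pou3f1 and Lhx3. It read 9.89 and 9.42, against 10.94 and 11.27 with YFP of batch 7. It fell by 1.45 ± 0.38, 2.73-fold lower, with an adjusted p of 0.0201 by limma in the model of all arrays, the only member to pass, where 1.73% of all genes were lower. The call was lost without YFP replicate 1 (adjusted p 0.0623), YFP replicate 2 (0.282) or line replicate 4 (0.259), and the difference was -0.25 with no batch term and -0.88 with batch as a random block. In batch 7 alone the difference is the same by design, since YFP is the only group that batch 7 shares with another batch. It is therefore not a second estimate. Ccnd1 had an adjusted p of 0.00119 there by limma, and 5 members passed, against 7.86% of all genes in either direction. The others were Kif23, a motor of the midzone (-0.42 ± 0.08), Ccna2, cyclin A2 (-0.40 ± 0.09), Aurkb, a mitotic kinase (-0.39 ± 0.10), and Mcm2, a helicase subunit (-0.33 ± 0.07). Without line replicate 3 the count was 10, and without each of YFP replicates 1 and 2 and line replicate 4 it was 1. In both arrays 34 of 38 members were below both YFP arrays, against 26.2% of all genes. Beside it Ccnd2, cyclin D2, fell by 1.45 ± 0.34, and the inhibitor genes Cdkn2a and Cdkn2b fell by 0.60 ± 0.14 and 1.60 ± 0.21. Cdkn2a read 7.44 and 7.62 and Cdkn2b 8.03 and 7.87 with Pou3f1 and Lhx3. The same YFP arrays of batch 7, high for both inhibitor genes, were the control here, and their part in these falls was not tested.

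Late genes read lower than YFP in the lines with Pou3f1 and a Hox gene, as they did in the parental E3 array of the same batch, and none passed in the model of all arrays. With Hoxa5 the members' mean was 8.68 and 8.92, and with Hoxc6 8.74 and 8.78, against 9.22 and 9.07 with YFP of batch 6 and 9.04 and 9.19 with Pou3f1 alone. The batch-matched differences were -0.34 with Hoxa5 (-0.16 for early, -0.49 for late members) and -0.38 with Hoxc6 (-0.20 and -0.54). With Hoxa5, 24 members were below both YFP arrays in both arrays, against 27.3% of all genes, and with Hoxc6 30 were, against 25.1%. The single E3 array, which carries no Pou3f1 or Hox label, lay as low. Its mean was 8.78 and its batch-matched difference was -0.37 (-0.26 for early, -0.46 for late members).

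No member passed in either comparison in the model of all arrays, where 5.92% and 8.98% of all genes did by limma and 2 and 3 members had an unadjusted p below 0.05. None passed in the model of batch 6 either, where 17% and 20.6% did. The spread of that batch contains the Flag-tagged Pou3f1 pair, which lie 1.33 apart. After the values were seen, the fit of batch 6 was repeated without that pair, a step that removes the widest replicate gap and brings the median standard error of a member to 0.118. Then 15 members were lower with Hoxa5 (3 early, 12 late), where 19.4% of all genes passed in either direction, and 21 with Hoxc6 (4 early, 17 late), where 23.1% passed in either direction. Mki67 read 8.20 and 8.57 with Hoxa5 and 8.51 and 8.49 with Hoxc6, against 9.44 and 9.26, which are differences of -0.97 ± 0.13 and -0.85 ± 0.13. Cenpe read 7.17 and 7.02 with Hoxa5 and 7.03 and 6.99 with Hoxc6, against 7.83 and 7.87. Kif11 read 8.20 and 8.43 with Hoxa5 and 8.16 and 8.33 with Hoxc6, against 9.26 and 8.87. Gmnn, an early member, did not part from YFP, at 6.41 and 6.41 with Hoxa5 and 6.45 and 6.40 with Hoxc6, against 6.36 and 6.51. The nuclear RNA Malat1 read 11.96 to 12.25 in the Hoxa5, Hoxc6 and Flag-tagged arrays while the remaining CD14 arrays of batch 6 gave 10.36 to 10.91, and its part in the result was not tested.

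In the model of all arrays, Ccnd2 and Cdk6, the partner kinase of D cyclins, fell with Hoxa5 by 1.39 ± 0.34 and 1.11 ± 0.29. With Hoxc6 the antiproliferative genes Btg1 and Ccng2 rose by 0.83 ± 0.18 and 0.62 ± 0.16. Of 21 progenitor genes 3 fell with Hoxa5 (Nes, Msi1 and Fabp7) and 1 rose (Nkx6-2), and 4 fell with Hoxc6 (the same 3 and Hes1). Of all genes 5.92% and 8.98% passed in either direction in these comparisons. Pou3f1 with the DN form of Lhx3 had 15 members above both YFP arrays, against 23.6% of all genes, with means of 9.23 and 9.36.

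Several CD2 lines lay below YFP in most members without passing the test. Hey1, a Notch effector, had all 38 differences negative with a median of -0.91, and 37 had an unadjusted p below 0.05. That count has no share of all genes beside it, and the 38 members vary together. Pcna, the sliding clamp of DNA polymerase, was the only member to pass, where 0.11% of all genes were lower. It read 11.01 in batch 2 and 12.02 in batch 4, against 11.64, 12.06, 11.77 and 12.40 with YFP, so the raw ranges overlapped. In the model it fell by 0.96 ± 0.23, 1.95-fold lower, with an adjusted p of 0.0451 by limma. The call was lost without either Hey1 array (adjusted p 0.0637 without the batch 2 array and 0.17 without the batch 4 array), without YFP of batch 1 (0.0928), YFP of batch 2 (0.104) or YFP replicate 2 of batch 3 (0.081), and with no batch term the difference was -0.45. Cdk1 read 8.27 and 9.91 with Hey1 against 9.23, 10.16, 10.43 and 10.41, and Mki67 9.05 and 10.30, neither of which passed. Of the other cell cycle genes Ncaph, a condensin subunit, fell by 1.25 ± 0.27 and the checkpoint gene Mad2l1 by 1.11 ± 0.26.

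The control of batch 2 was a single array and its mean of 9.78 was the second highest of the 9 arrays of that batch, after the H4 parental line at 10.31. The members lay below it by 1.23 in Hey1, 1.07 in Pou3f1, 0.80 in Klf6 and 0.85 in the Zbtb7c pair. For Pou3f1 in CD2 cells the gap in batch 1 was 0.15, where Pou3f1 read 8.69 and YFP 8.84. In the model of all arrays the median difference was -0.53 for Pou3f1, with 16 members at an unadjusted p below 0.05, and none passed where 2.09% of all genes did by limma. It was -0.54 for Klf6 (16 members, none passing, 0.471% of all genes) and -0.67 for Zbtb7c (20 members, none passing, 0.0251%). In these 3 lines all 38 differences were negative. Pou3f1 in CD14 cells had a median difference of -0.02, and the difference between reporters passed for 0 of 38 members by limma (lowest adjusted p 0.817, 1 with an unadjusted p below 0.05).

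Lhx3 in CD2 cells gave the opposite sign, with all 38 differences positive and a median of 0.74, but its arrays were far apart. The members' mean was 10.66 in batch 5 and 9.64 in batch 6, neither of which held YFP of CD2 cells. Ccnd1 read 11.38 and 9.94 and Mki67 11.69 and 9.88. None passed by limma, where 3.81% of all genes did, and 3 had an unadjusted p below 0.05. In the E3 arrays of batch 0 the mean of the members was 9.48 and 9.53, and in the single E3 array of batch 6 it was 8.78.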

How the data were processed

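Total RNA was measured on 1-colour Affymetrix mouse gene arrays. The deposited values are log2 signals that the authors made with RMA (background correction, quantile normalization and probe summary) in oligo, per the submitters' processing notes, with no version stated there. RMA equalises each array's distribution, so a change shared by most genes would not be visible. Of 35556 clusters in the table, 21789 had 1 gene symbol, 1621 several and 12146 none, giving 19938 genes. limma 3.58.1 in R 4.3.3 fitted group and batch over all 68 arrays (31 residual degrees of freedom), and p-values were Benjamini-Hochberg adjusted per comparison at 0.05. Other settings were batch left out, batch as a random block, a replicate block, 1 reporter or 1 batch at a time, a further quantile normalization, mean over clusters, dim genes left out, array weights, batch 4 left out and each array left out. The code was tested on simulated data. Members and lists were chosen with earlier results of these data known. All members could be named, with the called members of largest change (at most 8) in each comparison, at most 6 called genes of other lists, and the 10 genes most like the members. Replicate numbers were checked for pairing over 29 pairs of groups. The correlation of their replicate differences ran from -0.17 to 0.57, with a median of -0.03 and 10 above 0.1. Of these 10, 6 were among the 15 pairs of batch 3, where Btbd3 and Vwc2 gave 0.57. The numbers were not taken to pair arrays in the main model. A replicate effect shared by some lines of batch 3 was not tested apart. The number of arrays limits the precision.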

Additional observations from a re-analysis of the deposited data

Results flagged for a closer look

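Among 45 combinations of a measure with a group of 4 arrays, 1 array stood far from the others, where chance alone gives about 1 in 20. Ccnd1 read 10.13 in replicate 2 of YFP in CD2 cells of batch 3, and 9.35, 9.46 and 9.47 in the other 3 arrays of that group. The gap was 0.845 of the whole range, above Dixon's 95% critical value for 4 values. Without that array the rise of Ccnd1 with the 30 h Notch1 domain was 3.29.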

How the results depend on the processing

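The mean of the members per array, the batch-matched differences and the correlations with the members kept their values within the replicate spread under the settings run for them, and no difference changed sign among the results tested. The count of members called moved with the model of the error. In CD2 cells it was 3, and became 1 with 1 reporter fitted alone, 5 with dim genes left out, 6 without both Flag-tagged Pou3f1 arrays (chosen after seeing the data), and 1 to 6 with single arrays left out. In CD14 cells it was 2, and became 14 with no batch term, 6 with 1 reporter alone, 22 with array weights, and 0 to 3 with single arrays left out. Between lines it was 0, and became 4 with 1 reporter alone, 22 with array weights, and 0 to 1 with single arrays left out. The cause was not tested.

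For the 30 h Notch1 domain the count of 1 became 2 with no batch term, with batch as a random block and within batch, 3 without the Flag-tagged arrays, and 1 to 3 with single arrays left out. For the 10 h Notch1 domain it became 0 with no batch term, a random block or 1 reporter, and 0 to 1 with single arrays left out. For NERT 30 h it became 7 with no batch term, 3 with a random block, 4 with 1 reporter, 29 within batch (20 and 12 there without NERT replicates 1 and 2, and 10 without YFP replicate 1 or 2), 2 with the mean over clusters, 7 with array weights, 2 without the Flag-tagged arrays, and 0 to 1 with single arrays left out. For Pou3f1 with Lhx3 it became 0 with no batch term or a random block, 5 within batch (1 to 10 there with single arrays left out) and 0 to 1 with single arrays left out. For Hey1 it became 0 with no batch term, a random block, 1 reporter, array weights or without batch 4, 2 with dim genes left out or without the Flag-tagged arrays, and 0 to 1 with single arrays left out. From 0, Pou3f1 with Hoxa5 became 3 with no batch term, 6 with array weights and 15 within batch without the Flag-tagged arrays, and Pou3f1 with Hoxc6 became 4, 8 and 21 under these and 1 with 1 reporter. Both stayed at 0 with single arrays left out. NERT 30 h against 10 h went from 0 to 3 with 1 reporter, 33 within batch (6 to 18 there with single arrays left out) and 10 with array weights, and stayed at 0 with single arrays left out of the model of all arrays.

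With the replicate block the counts stayed at 3, 2 and 0, Ccnd1 with the 30 h Notch1 domain differed by 3.09, and no call changed. Most groups had 2 arrays, which limits what the tests can resolve.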
